A study of Mus musculus with 38 samples.

Results

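The 34 genes described here are the identity genes of microglia and macrophages: P2ry12, P2ry13, Tmem119, Cx3cr1, Csf1r, Aif1, C1qa, C1qb, C1qc, Trem2, Tyrobp, Ptprc, Cd68, Fcgr3, Fcer1g, Ctss, Laptm5, Siglech, Sall1, Gpr34, Olfml3, Ly86, Lyz2, Mpeg1, Mrc1, Pf4, Cd14, Cd53, Spi1, Irf8, Selplg, Unc93b1, Lgmn and Fcrls. They were chosen by name, all were found among the 54532 genes of the deposited count table, and all 34 were among the 22798 genes that passed the filter on low counts. They were followed in RNA of panned oligodendrocyte precursor cells (OPCs) from mouse forebrain at postnatal days 6 to 7. All mice, controls included, carried floxed Bmal1 alleles (Bmal1fl/fl). The KO group was NG2:Cre+;Bmal1fl/fl, in which Cre under the NG2 (Cspg4) promoter removes the part of Bmal1 that encodes the DNA-binding domain, and the WT group was NG2:Cre-;Bmal1fl/fl. The NG2 promoter is active in OPCs and in pericytes, a group with Cre and intact Bmal1 was not analysed here, and whether microglia carried the deletion was not tested. Each library came from 2 pooled mice. Cells were taken at zeitgeber time (ZT) 0, lights on, and at ZT6, ZT12, lights off, and ZT18, which gave 4, 7, 4 and 4 KO libraries and 4, 5, 6 and 4 WT libraries in that order of times.

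Microglia are the resident macrophages of the brain. They descend from yolk sac progenitors, live under signals from the CSF1 receptor, and keep their identity through the transcription factors PU.1, IRF8 and SALL1. They survey the tissue with P2Y receptors and CX3CR1, tag and clear synapses and debris with complement C1q, and digest what they take up in lysosomes. In the first postnatal week they are numerous in the white matter where OPCs also divide, and they bind the lectin BSL1. The panning used 2 plates coated with BSL1 to take out microglia and endothelial cells before a plate with an antibody against PDGFRα collected the OPCs. Since bulk RNA was sequenced, fewer microglia and less of a transcript per microglial cell cannot be told apart in any value given here.

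Library totals ranged from 19.4 to 39.0 M counts, and even the least counted member in its lowest library, Aif1, had 572 counts, so counting error was small beside the spread between libraries. Ribosomal RNA genes held at most 0.263% of the counts in 8 libraries and at least 0.409% in the other 30. These low-rRNA libraries were all 4 of KO ZT18, KO ZT6 replicate 7 and WT ZT12 replicates 4, 5 and 6. At KO ZT18 the time and the low share therefore cannot be told apart. No WT ZT18 library was among them, so genotype at ZT18 cannot be told apart from the low share either. The interaction and the comparison over all times include KO ZT18. At ZT12 only WT libraries were among the low-rRNA libraries, so genotype and the low share were partly mixed there. By Xist and Y-linked transcripts, 13 libraries held RNA of a single sex. Arntl, the gene of BMAL1, had 17.7 to 23.4 CPM in KO libraries and 19.4 to 33.2 CPM in WT libraries, and since its remaining exons are counted too, this does not check the genotype. CPM are counts per M of the library size after TMM scaling.

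The OPC label held for the main transcripts and did not describe all of the RNA. Pdgfra, the receptor used to collect the cells, averaged 405 CPM per kb of gene length over the 38 libraries, and Olig1, a transcription factor of the lineage, 932 CPM per kb. Beside them, 22 of the 34 members were above 100 CPM per kb. Per kb, 12 were in the top 1% of the 15820 protein-coding genes tested, and 6 were above Pdgfra. In CPM, not divided by gene length, no member was above Pdgfra. Pdgfra averaged 4062 CPM and the highest member, Csf1r, 2719 CPM. Markers of the endothelium, the other cell type the BSL1 plates should remove, had a median of 1.58 CPM per kb over 10 genes, and markers of monocytes, neutrophils and lymphocytes 0.422 CPM per kb over 9 genes. The T cell gene Cd3e was at 0 in 21 of 38 libraries, and Nkg7, a gene of cytotoxic lymphocytes, in 22. The median of the 34 members was 121 CPM per kb, that of 12 OPC markers 196, and that of 10 astrocyte markers 16.4. It was lower for 24 other microglia genes, at 36.3, and for 10 border macrophage markers, at 20.2. The level of microglial transcripts beside OPC markers therefore depends on which genes are listed. Red blood cell transcripts were also abundant, with a median of 171 CPM per kb over 6 genes and 1826 for the highest, above the members' median.

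**Figure D1:**
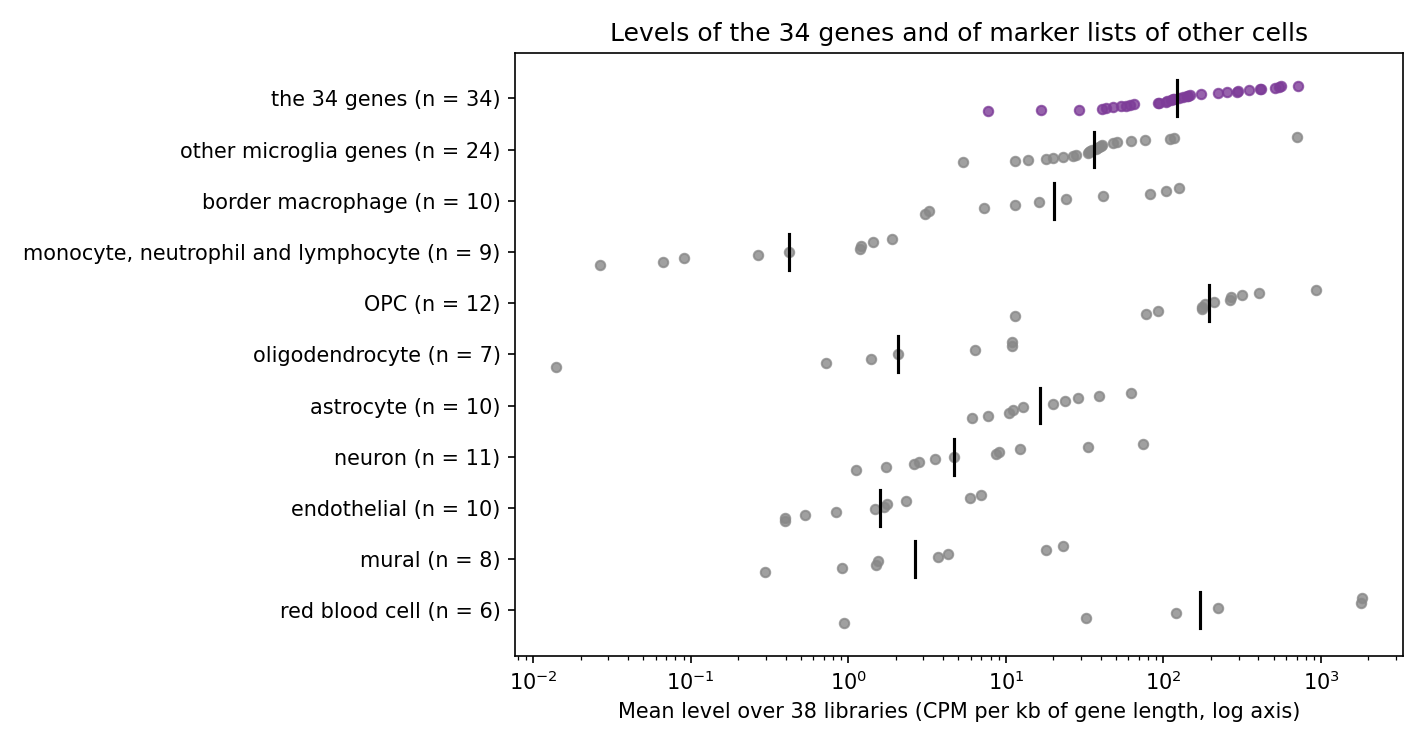
Mean level of each gene over the 38 libraries, in CPM per kb of gene length on a log axis, for the 34 genes and for marker lists of other cells; each point is a gene and each bar the median of its list. The 34 genes, with a median of 121 CPM per kb, lie close to the OPC markers at 196 and far above endothelial markers at 1.58. The 24 other microglia genes, at 36.3, and the 10 border macrophage markers, at 20.2, are lower than the 34.

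By role, the levels per kb differed widely. Among the homeostatic surface and secreted genes, Fcrls, an Fc receptor-like protein used as a microglial marker in mouse, was highest at 413 CPM per kb, followed by the ADP receptor P2ry12 at 350.3 and the fractalkine receptor Cx3cr1 at 299.6. The purinergic receptor P2ry13, the lysophosphatidylserine receptor Gpr34, the membrane protein Tmem119, the sialic acid-binding lectin Siglech and the secreted protein Olfml3 lay between 57.6 CPM per kb for Olfml3 and 144 for Gpr34. Csf1r, the receptor for CSF1 and IL34 on which microglial survival depends, was at 557 CPM per kb. The transcription factor genes were lower, with 65.2 CPM per kb for Sall1, 48.1 for Spi1, which encodes PU.1, and 16.8 for Irf8. The chains of complement C1q, the recognition part of the classical complement pathway, were at 543 for C1qa, 508 for C1qb and 294 CPM per kb for C1qc.

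Tyrobp, the adaptor (DAP12) that passes on signals of the lipid receptor TREM2, was at 222 CPM per kb, Fcer1g, the common Fc receptor chain, at 173, Fcgr3 at 115 and Trem2 itself at 43.4. The lysosomal genes held the highest member of all, Lgmn (legumain, an asparaginyl protease), at 719 CPM per kb, which ranked 18 of the 15820 protein-coding genes. Ctss (cathepsin S) followed at 416, with Unc93b1, a chaperone of endosomal Toll-like receptors, at 148, Cd68 at 142, the pore-forming Mpeg1 at 132 and the lysozyme gene Lyz2 at 106 CPM per kb. Genes shared by most leukocytes ranged from 7.67 CPM per kb for Ptprc (CD45), the lowest member per kb, to 253 for the lysosomal membrane protein Laptm5. The tetraspanin Cd53 was at 111 and the selectin ligand Selplg at 40.7. Levels per kb depend on the length of the deposited gene model, which is 18313 bases for Ptprc. In CPM the mean of Ptprc, 140, was above that of Aif1, 44.6. The lipopolysaccharide coreceptor Cd14 was at 61.1, Ly86 (MD-1) at 53.5 and Aif1 (IBA1) at 29.1 CPM per kb. Mrc1, the mannose receptor, and Pf4, platelet factor 4, both high in macrophages of the brain's borders, were at 125 and 104 CPM per kb.

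Several members share a place in the genome or reads with another gene. Tmem119 lies on chromosome 5, 113793729 to 113800516, minus strand, P2ry12 on chromosome 3, 59216272 to 59262871, minus strand, C1qa on chromosome 4, 136895917 to 136898803, minus strand and Lgmn on chromosome 12, 102394084 to 102439813, minus strand, each position being that of the whole gene model. P2ry13 and P2ry12 are neighbours on chromosome 3 with 5389 bases between them, the C1q genes lie together on chromosome 4 within 3616 and 2851 bases of each other, and Tmem119 and Selplg are 18019 bases apart on chromosome 5 (coordinates of the deposited table, GRCm38). P2ry12 and P2ry13 lie inside Med12l, on the opposite strand, which had 90.4 CPM, and Gpr34 overlaps Cask, also on the opposite strand, at 196 CPM. The deposited models of Csf1r and Cx3cr1 overlap other tested genes too. How the counting treated strand is not given in the sources used here. A part of these counts may belong to the partner. Fcgr3 and Lyz2 have close paralogs, and their counts are uncertain for that reason.

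The members' promoter windows were searched for GAGGAAGT, a motif of PU.1, the factor that the member Spi1 encodes, on both strands. RefSeq windows of the GRCm38.p6 build, from 250 bases before to 50 after the gene start, were matched for 25 of the 34 members by symbol. Tmem119, Csf1r, C1qa, Tyrobp, Gpr34, Cd14, Spi1, Selplg and Unc93b1 had none in the table. The motif was in the windows of 4 of the 25 (C1qc, Ctss, Cd53 and Pf4), which is 16%, and in 3.69% of the 27025 genes with a window. The windows of C1qc (chr4:136892865-136893164, minus strand), Ctss (chr3:95526536-95526835, plus strand) and Cd53 (chr3:106790100-106790399, minus strand) are printed 5′ to 3′ on the strand of the gene, as examples of the members that hold the motif. Capitals mark the motif, read as its reverse complement ACTTCCTC, which starts at base 56 of the window in C1qc, base 249 in Ctss and base 257 in Cd53.
C1qc: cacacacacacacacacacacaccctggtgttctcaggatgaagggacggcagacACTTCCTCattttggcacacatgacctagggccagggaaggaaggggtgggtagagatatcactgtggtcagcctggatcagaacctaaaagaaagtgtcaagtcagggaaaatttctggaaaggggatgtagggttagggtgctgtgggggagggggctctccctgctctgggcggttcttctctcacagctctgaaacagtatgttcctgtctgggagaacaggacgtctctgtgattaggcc
Ctss: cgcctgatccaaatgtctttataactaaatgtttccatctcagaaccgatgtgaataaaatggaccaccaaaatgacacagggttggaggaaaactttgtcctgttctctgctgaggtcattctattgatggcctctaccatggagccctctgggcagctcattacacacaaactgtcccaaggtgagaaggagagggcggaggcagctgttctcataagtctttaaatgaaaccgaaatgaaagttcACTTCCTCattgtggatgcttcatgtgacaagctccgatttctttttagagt
Cd53: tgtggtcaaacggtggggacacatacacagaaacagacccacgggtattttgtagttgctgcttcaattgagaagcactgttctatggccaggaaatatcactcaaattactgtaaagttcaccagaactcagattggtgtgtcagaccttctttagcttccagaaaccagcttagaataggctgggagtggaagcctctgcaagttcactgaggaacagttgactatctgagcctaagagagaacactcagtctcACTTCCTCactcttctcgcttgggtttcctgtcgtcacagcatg
In Ctss the motif spans the annotated start, and in Cd53 it lies just past it. A match of these letters is a description of the window and not a measured site.

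Summed over the 34 members, the share of a library's counts ran from 0.707% in KO ZT0 replicate 1 to 2.71% in KO ZT6 replicate 3, a 3.83-fold range with a median of 1.66%. The KO ZT0 libraries held 0.707%, 1.39%, 1.10% and 1.34%. The KO ZT6 libraries had a lowest, median and highest share of 1.24%, 2.04% and 2.71%. The KO ZT12 libraries held 1.39%, 1.74%, 2.03% and 1.19%, and the KO ZT18 libraries 1.68%, 2.29%, 1.72% and 2.17%. All 4 KO ZT0 libraries were below all 4 KO ZT18 libraries, whereas KO ZT6 and KO ZT12 overlapped both. In WT the shares were 1.05%, 1.92%, 2.27% and 1.06% at ZT0, 1.40%, 1.79%, 1.66%, 1.40% and 2.14% at ZT6, with a lowest, median and highest of 1.06%, 1.59% and 1.82% at ZT12, and 2.07%, 2.07%, 1.37% and 0.885% at ZT18. The WT groups overlapped each other at all times. The ratio to OPC transcripts spread the libraries further: the members' counts came to 37.5% of the counts of the 12 OPC markers in KO ZT0 replicate 1 and to 211% in KO ZT6 replicate 3.

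**Figure D2:**
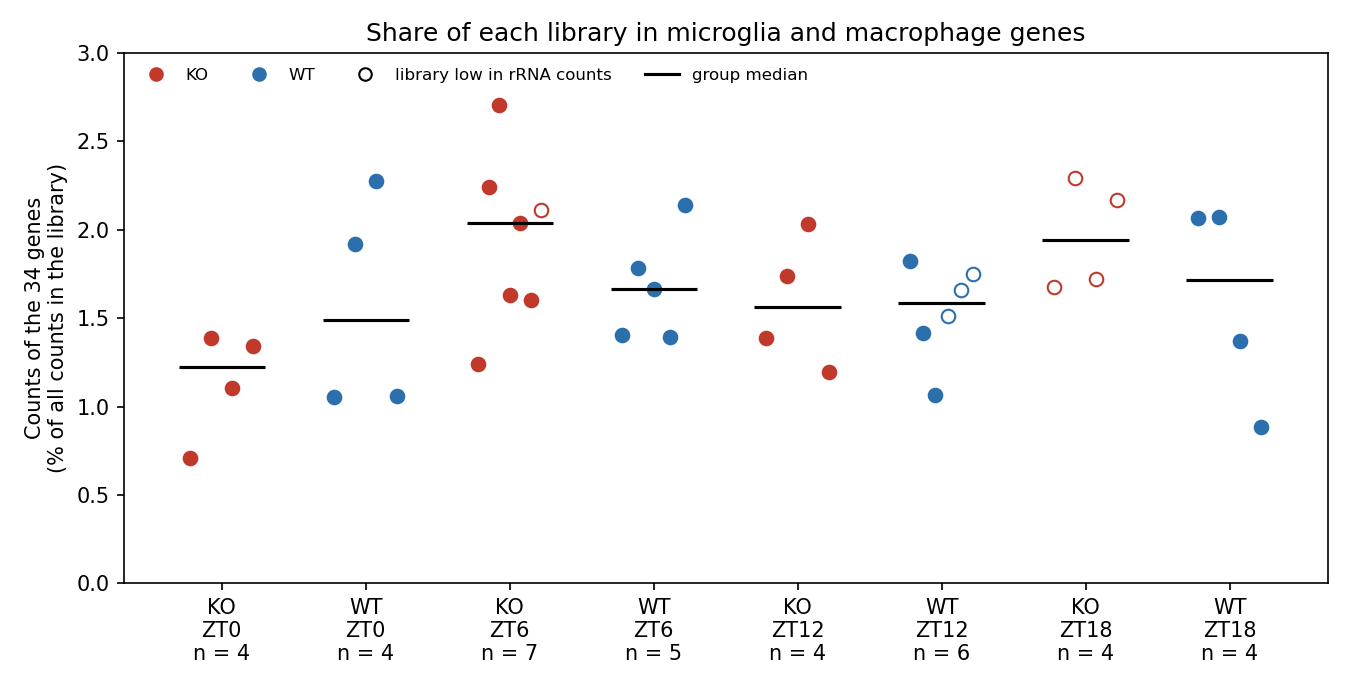
Summed counts of the 34 genes as a percent of all counts, for each of the 38 libraries (points) by genotype and time, with the group median as a bar; open points are libraries low in ribosomal RNA counts. Shares run from 0.707% to 2.71%, all KO ZT0 libraries are below all KO ZT18 libraries, and the WT groups overlap.

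The spread between libraries of the same group was large and shared by the members. The SD within groups had a median of 0.436 log2 CPM over the 34 members, against 0.161 over the 5802 protein-coding genes with a mean at or above that of the lowest member, and 97.5% of those genes had a smaller SD than the median member. When the library's mean deviation over the 34 genes was taken off each gene, the median SD was 0.141, and 28 of the 34 members were under 0.2. In 31 of the 38 libraries at least 30 of the 34 members were on the same side of their group's mean, and in 16 libraries all 34 were. The lowest library was KO ZT0 replicate 1 for 30 members, and the highest was KO ZT6 replicate 3 for 24. The ratio of the highest to the lowest library was widest in Tmem119 at 7.18 and narrowest in Aif1 at 2.82.

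Unc93b1, Lgmn, Csf1r and Trem2 were most in step with the other members, with SDs of 0.0597, 0.0638, 0.0653 and 0.0660 log2 CPM after the shared part was taken off. Cd14, at 0.386, and Pf4, at 0.354, were least in step, followed by Lyz2 at 0.285, Selplg at 0.257, Tmem119 at 0.254 and Mrc1 at 0.226. Outside the list, the genes whose deviations from their group means were closest to the mean profile of the 34 members included Pld4, Selenop, Fcgr1, Itgb5, Pros1, Fermt3, Sla, Vsir and Adgre1. Their root mean square distances over the 38 libraries were 0.0710 log2 CPM for Pld4 to 0.0878 for Adgre1, out of 12758 genes ranked, against 0.369 for a flat profile and a median of 0.125 for the members themselves. Itgb5 and Adgre1 also stand in the list of other microglia genes. All of these profiles share the same libraries and scaling, so they are a description.

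**Figure D3:**
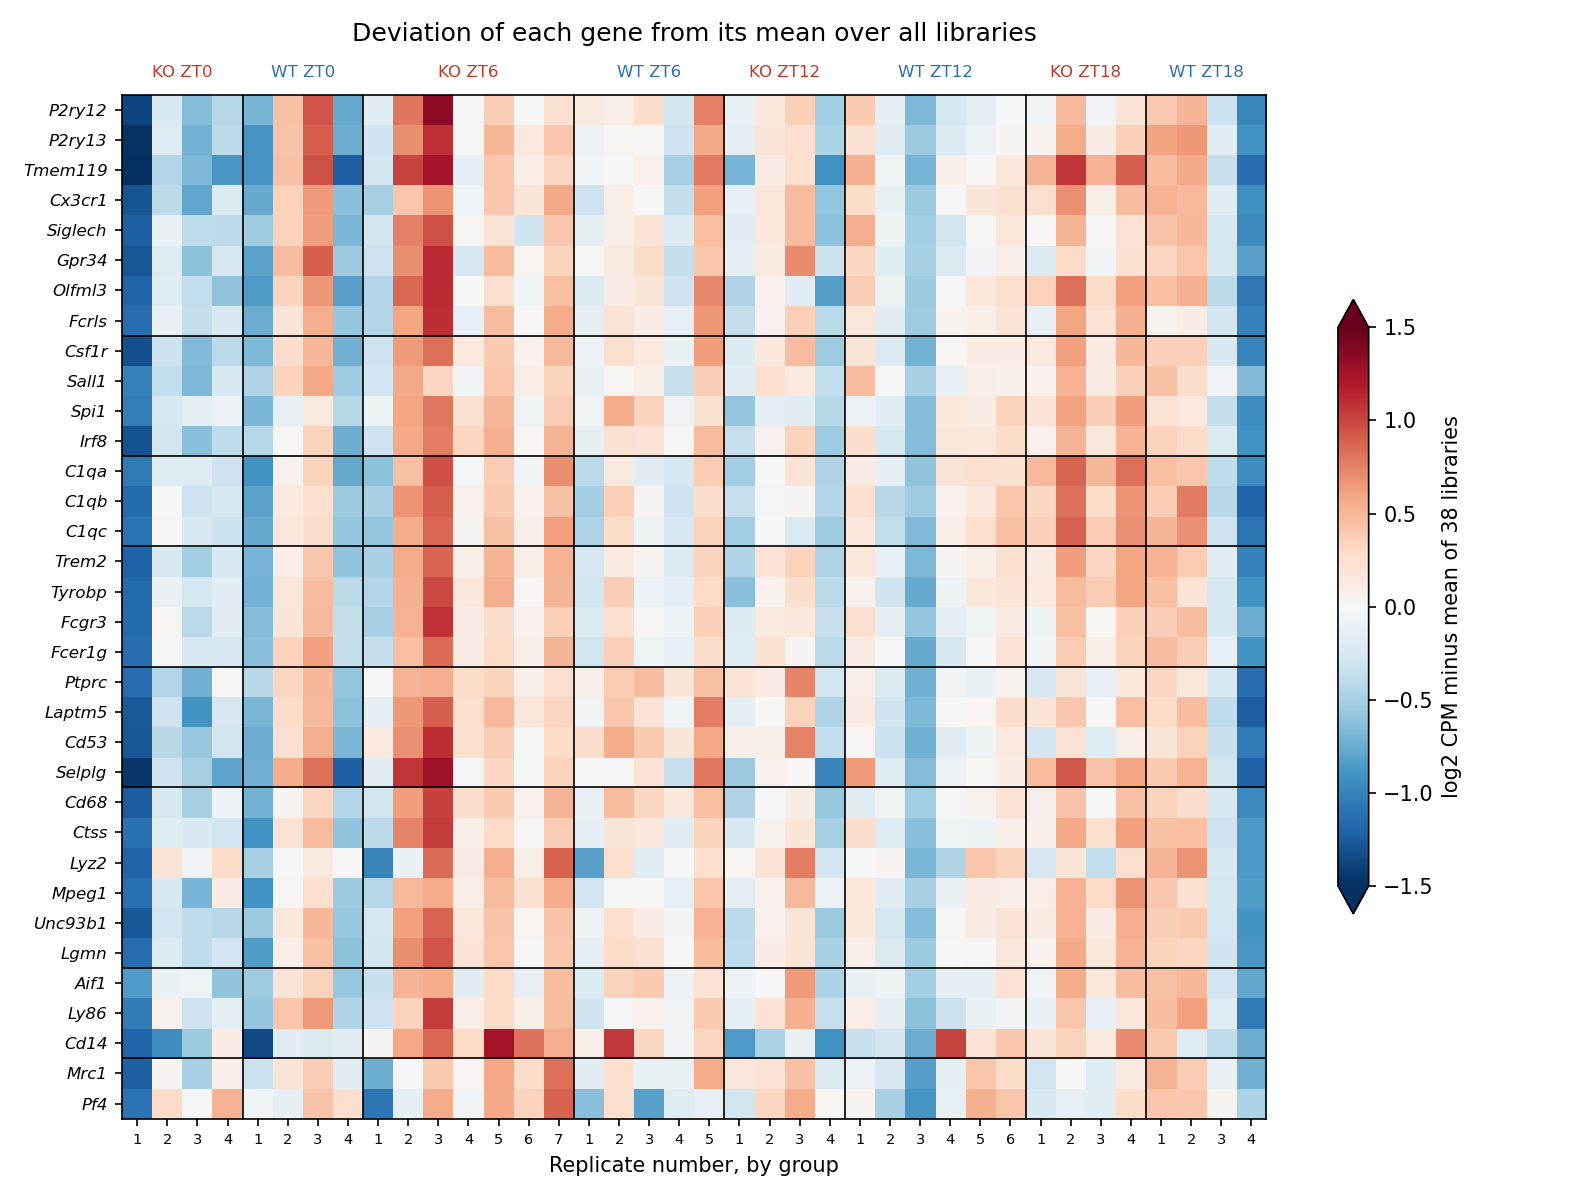
Each cell is the log2 CPM of a gene (rows, grouped by role between the lines) in a library (columns, replicate numbers within genotype and time) minus that gene's mean over 38 libraries, with the color scale ending at 1.5 in both directions. Columns tend to have a single color from top to bottom, such as the low KO ZT0 replicate 1 and the high KO ZT6 replicate 3, while Cd14, Mrc1, Pf4 and Lyz2 depart from their column.

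**Figure D4:**
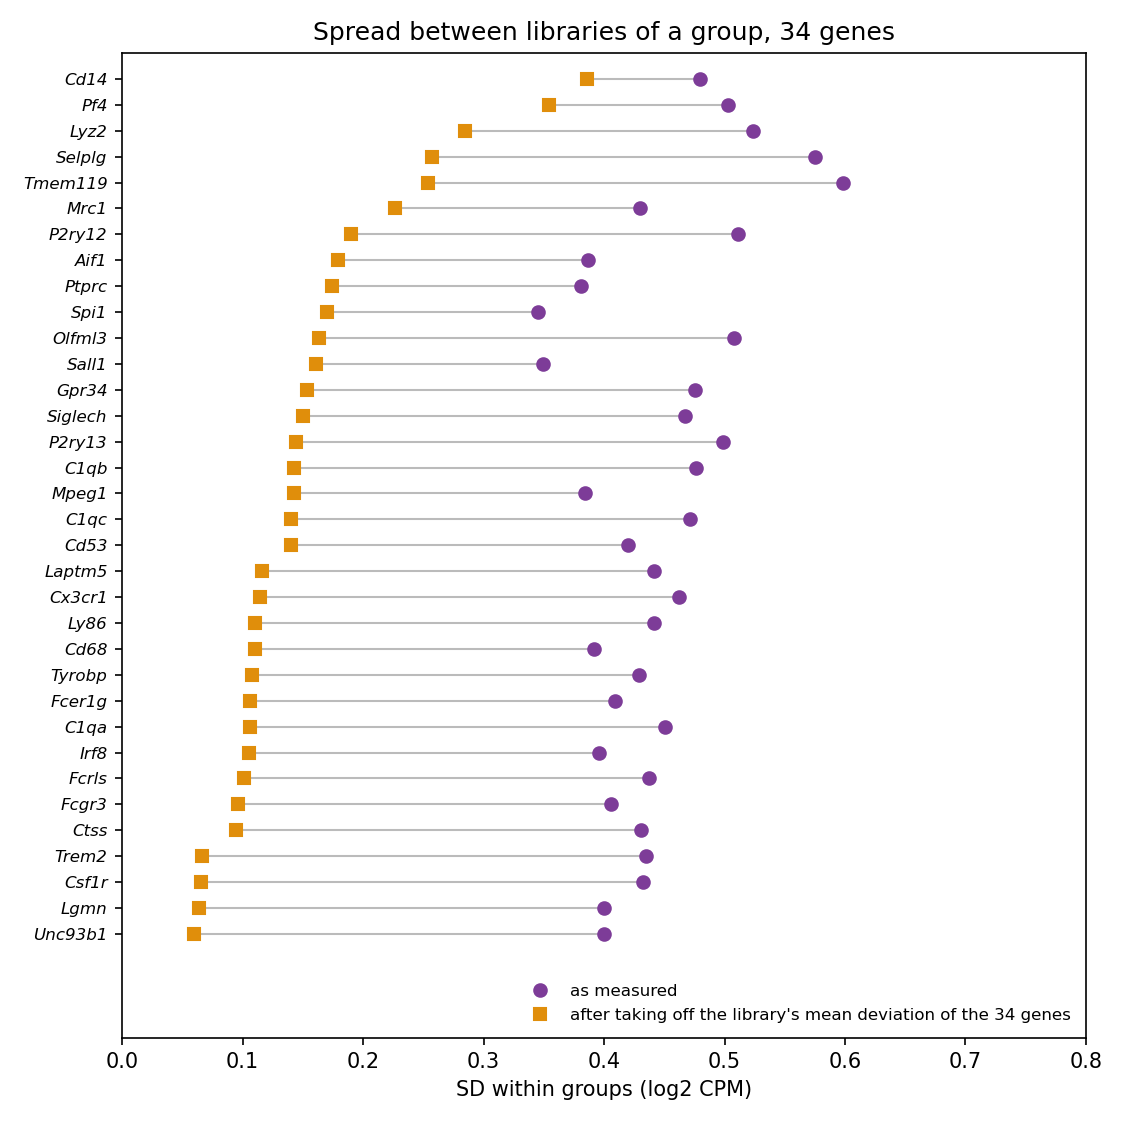
SD within groups of each of the 34 genes in log2 CPM (circles) and the same after the library's mean deviation over the 34 genes was taken off (squares). The median is 0.436 as measured and 0.141 after that step, and Cd14 at 0.386 and Pf4 at 0.354 keep the widest remaining spread.

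The comparison of KO with WT asks whether the loss of BMAL1 in the OPC lineage came with a different amount of microglial RNA in the panned cells. By the edgeR quasi-likelihood test, with p adjusted after Benjamini and Hochberg over all 22798 genes, none of the 34 members passed at any time or over all times. At ZT0 all 34 members were lower in KO, with a median log2 fold change (KO over WT) of -0.39 against -0.05 over all genes. Of them 0 were called, where 0.285% of all genes were, and 10 (29.4%) had an unadjusted p under 0.05, against 18.4% of all genes. DESeq2 called 1, Sall1, and limma-voom 0. The repressor Sall1, which maintains microglial identity in mouse, was nearest to the threshold, with 164, 257, 209 and 283 CPM in KO ZT0 against 244, 418, 497 and 229.7 CPM in WT ZT0 (log2 fold change -0.60, SE 0.226, adjusted p = 0.140). WT ZT0 replicates 2 and 3 were high and replicates 1 and 4 lay within the KO range.

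Tmem119 showed the same arrangement at ZT0, with 64.3, 144, 122 and 106 CPM in KO and 105, 264, 376 and 83.4 CPM in WT (log2 fold change -0.92, SE 0.382, adjusted p = 0.183). Without WT ZT0 replicate 4 both passed, Sall1 at -0.76 and Tmem119 at -1.19. P2ry12 had 321, 710.1, 529 and 619.6 CPM in KO against 513, 1124, 1605 and 491 CPM in WT (-0.78, SE 0.332, adjusted p = 0.199). Complement C1qa differed less, with 255, 465, 466 and 427 CPM in KO against 285, 557, 668 and 313 CPM in WT (-0.18, SE 0.285, adjusted p = 0.793), and its sign turned without WT ZT0 replicate 3. By role, the median log2 fold change at ZT0 ran from -0.67 for the homeostatic surface genes to -0.19 for C1q. No member's KO and WT libraries were separate at ZT0 in either direction, where 2.6% of all genes were separate and higher in KO and 2.63% separate and lower.

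At ZT6, 33 of the 34 members were higher in KO with a median log2 fold change of 0.25, 0 were called (0.0132% of all genes were) and 0 had an unadjusted p under 0.05. At ZT12, 17 were higher and 17 lower in KO with a median of -0.01, and 0 were called, against 5% of all genes. The sign of that median turned under other scalings, so no direction is given for ZT12. WT replicates 4, 5 and 6 and no KO library of this time were low in rRNA. Genotype and the low share were therefore partly mixed at ZT12. Scaling on the OPC markers moved the median of all genes by 0.33 at ZT12 and by -0.17 at ZT0, and the members' median relative to all genes was then 0.01 at ZT12 and -0.36 at ZT0. Of the 12 OPC markers 3 were called lower in KO at ZT12 (Cspg4, C1ql1 and Neu4), with a list median log2 fold change of -0.35. At ZT12 Cd14 stood lowest, with 48.6, 63.0, 80.9 and 46.8 CPM in KO against a lowest, median and highest of 52.5, 86.7 and 177 CPM in WT (log2 fold change -0.71, SE 0.290, adjusted p = 0.147). It was the only member with an unadjusted p under 0.05 at that time. Without the single-sex libraries Cd14 passed at ZT12 (-0.85). DESeq2 and limma-voom each called 0 members at ZT6 and at ZT12.

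At ZT18, 31 members were higher in KO with a median log2 fold change of 0.35, 0 were called (2.14% of all genes were) and 2 (5.88%) had an unadjusted p under 0.05, against 18.2% of all genes. DESeq2 and limma-voom called 0. All KO and no WT libraries of this time were low in rRNA, so genotype and the low share cannot be told apart here. Spi1, the PU.1 gene, had 142, 189, 160.2 and 192 CPM in KO ZT18 against 144, 138, 96.9 and 65.2 CPM in WT ZT18 (log2 fold change 0.62, SE 0.221, adjusted p = 0.115). C1qa had 747, 974, 751 and 945 CPM in KO against 727, 708, 409.7 and 279 CPM in WT (0.69, SE 0.286, adjusted p = 0.185) and was the only member whose KO libraries were all above the WT libraries, as 10.4% of all genes were. Mrc1, Pf4 and Lyz2 were the 3 members below WT, Mrc1 with 629, 774, 675 and 842 CPM in KO against 1094, 1000.2, 713 and 466 CPM in WT (-0.16, SE 0.271, adjusted p = 0.801). All 10 border macrophage markers, which include Mrc1 and Pf4, were lower in KO ZT18, with 0 called and a median of -0.26. Over all times the member median was 0.01 with 0 called, against 0.0921% of all genes, and 0 members had an unadjusted p under 0.05; its sign, too, turned with the scaling.

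**Figure D5:**
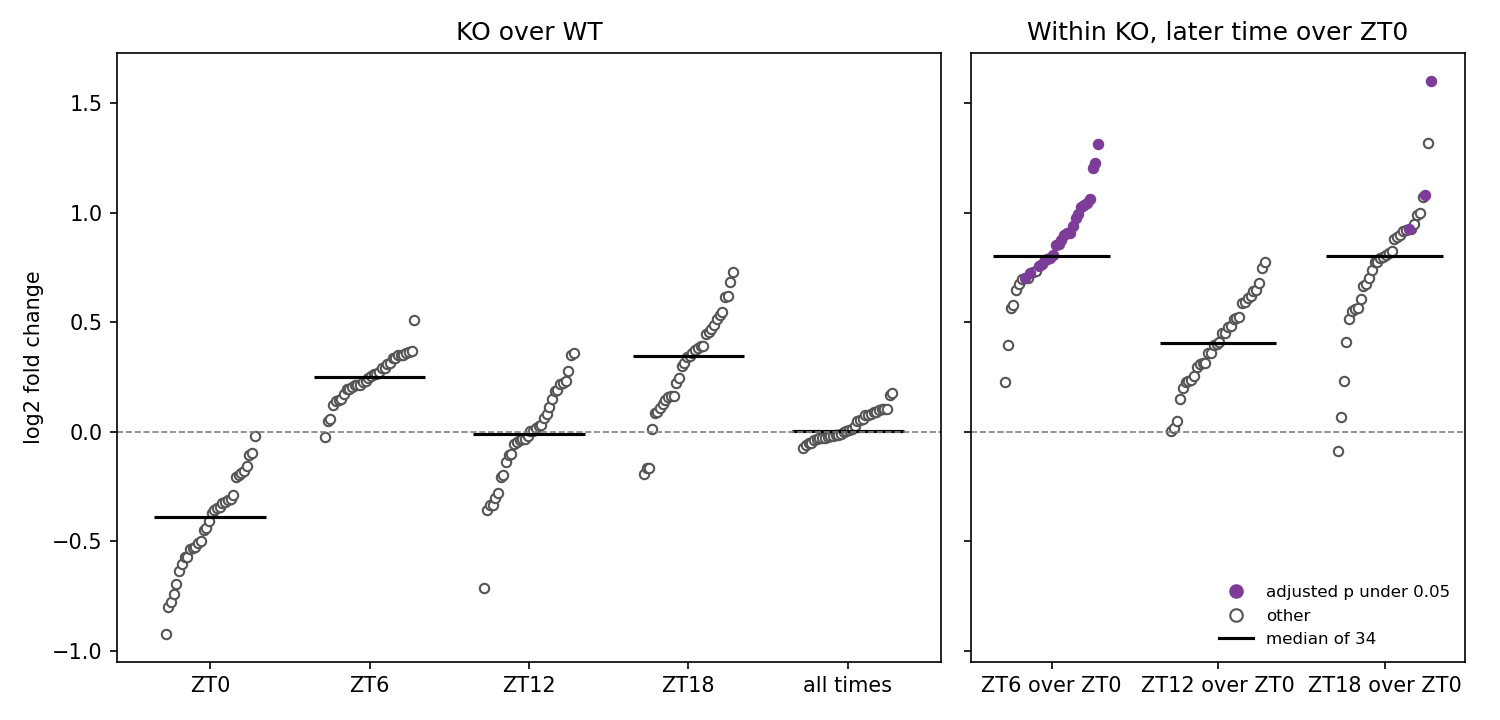
Log2 fold changes of the 34 genes, KO over WT at each time and over all times (left) and each later time over ZT0 within KO (right); points are genes in order of value, filled where the adjusted p was under 0.05, and bars are medians. The medians were -0.39, 0.25, -0.01, 0.35 and 0.01 for KO over WT, with no filled point, and 0.80, 0.40 and 0.80 within KO, with 23, 0 and 3 filled points.

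Time of day was tested within each genotype over the 4 times. In WT, 0 of the 34 members were called, where 4.91% of all genes were, 1 (2.94%) had an unadjusted p under 0.05 against 17.5% of all genes, and the lowest adjusted p was 0.284 for Cd14. In KO, 23 of the 34 (67.6%) were called, where 21.9% of all genes were. The test of the difference itself, genotype by time, called 0 of the 34, where 9.19% of all genes were called. Its lowest adjusted p was 0.109 for Tmem119, and 5 members (14.7%) had an unadjusted p under 0.05, against 24.7% of all genes. The course of the day in KO is therefore not shown to differ from that in WT. DESeq2 and limma-voom each called 0 members in WT and 0 for the interaction. The lowest adjusted p in KO were 0.00194 for Cd14, 0.00452 for Spi1, 0.00829 for Tmem119 and 0.00941 for Irf8. The 11 members without a call were P2ry12, Fcrls, Gpr34, Siglech, Fcgr3, Fcer1g, Aif1, Ly86, Lyz2, Mrc1 and Pf4.

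The count of 23 moved with the libraries used. Without KO ZT0 replicate 1, the library lowest in these genes, 6 members were called, against 15.8% of all genes, and 6 of 34 is a share near that of all genes. Without KO ZT0 replicate 3 there were 12 members and 17.9% of all genes, and without KO ZT18 replicate 2 there were 15 members and 17.3% of all genes. Without the 13 single-sex libraries, which include KO ZT0 replicate 1, 22 members were called, 19 of them among the 23, and 12.8% of all genes. Tmem119, C1qa, Cd14, Spi1, Irf8 and Selplg were called in all 38 fits that left out a library. Without the 8 low-rRNA libraries, which leaves KO ZT18 empty, 7 members were called and 8.93% of all genes, and without KO ZT18 alone 14 members and 12.1% of all genes. The group medians of the members were lowest in KO ZT0 for 29 of the 34 among the 8 groups, and highest in KO ZT6 for 22 and in KO ZT18 for 9.

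Each later time in KO was then set against ZT0, a choice made after the test over the 4 times was seen. At KO ZT6, 23 of the 34 members were called higher than at KO ZT0, where 6.55% of all genes were, and none was called lower. The median log2 fold change was 0.80 over the members and -0.01 over all genes. At KO ZT12 all 34 were above KO ZT0 with a median of 0.40, and 0 were called, where 3.27% of all genes were; 9 members (26.5%) had an unadjusted p under 0.05 against 19.5% of all genes, and DESeq2 called 1, Ptprc. At KO ZT18 the median was 0.80 and 3 members were called higher, where 1.12% of all genes were. The 3 were Tmem119, C1qa and Irf8. Without KO ZT0 replicate 1 no member was called at KO ZT6 or KO ZT18, and the medians were 0.64 at both times. The KO ZT18 count also ended without KO ZT18 replicate 2, 3 or 4, and it lay between 0 and 14 over the 38 fits that left out a library. Without KO ZT0 replicate 3 the KO ZT6 count was 10, and without KO ZT6 replicate 3 it was 14. The shares of all genes called in these fits of KO ZT6 and KO ZT18 are not given here. KO ZT0 replicate 1 had 22.97 M counts and 18057 CPM summed over the OPC markers, the highest of its group.

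Among the homeostatic surface and secreted genes, 7 of 8 were called higher at KO ZT6, where 6.55% of all genes were. Siglech was higher too but did not pass (0.79, adjusted p = 0.0568). Without KO ZT0 replicate 1 none of the 34 members was called at KO ZT6. The KO ZT6 calls given by role, here and below, therefore rested on that library. Fcrls, the highest per kb, had a lowest, median and highest of 672, 1261 and 1969 CPM at KO ZT6 against 415, 850.4, 713 and 780.2 CPM in the KO ZT0 libraries (log2 fold change 0.80, SE 0.256, adjusted p = 0.0399). Tmem119 had 161, 244 and 462 CPM at KO ZT6 against 64.3, 144, 122 and 106 CPM in the KO ZT0 libraries (log2 fold change 1.31, SE 0.354, adjusted p = 0.0146). KO ZT0 was below KO ZT6 without overlap for Tmem119, whereas KO ZT6 replicate 1 of Fcrls, at 672 CPM, was inside the KO ZT0 range. P2ry12 had 744, 971 and 2106 CPM at KO ZT6 against 321, 710.1, 529 and 619.6 CPM in the KO ZT0 libraries (log2 fold change 1.06, SE 0.305, adjusted p = 0.0212), also without overlap. Its neighbour P2ry13 had 224, 365 and 589.8 CPM at KO ZT6 against 99.1, 243, 169 and 210.4 CPM in the KO ZT0 libraries (log2 fold change 1.04, adjusted p = 0.0185). Cx3cr1, which senses the neuronal ligand fractalkine, had 907, 1689.8 and 2033 CPM at KO ZT6 against 523, 977, 743 and 1100.4 CPM in the KO ZT0 libraries (0.90, adjusted p = 0.0268). In both genes the lowest KO ZT6 library was below the highest KO ZT0 library. Gpr34 had 229, 359 and 618 CPM at KO ZT6 against 117, 248, 185 and 239 CPM in the KO ZT0 libraries (0.91, adjusted p = 0.0313). Olfml3 had 245, 391 and 718 CPM at KO ZT6 against 144, 291, 256 and 218 CPM in the KO ZT0 libraries (0.94, adjusted p = 0.0365). In both, KO ZT6 replicate 1 lay within the KO ZT0 range. At KO ZT18 Tmem119 had 278, 409, 278 and 361 CPM, all above the KO ZT0 libraries (log2 fold change 1.60, SE 0.387, adjusted p = 0.0354), the largest difference of any member. Over the 19 WT libraries its lowest, median and highest were 83.4, 197 and 376 CPM.

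Csf1r and the 3 transcription factor genes were all called higher at KO ZT6, where 6.55% of all genes were. Csf1r had 2079.8, 3378 and 4591 CPM at KO ZT6 against 1035, 2062, 1624 and 1955 CPM in the KO ZT0 libraries (log2 fold change 0.99, SE 0.254, adjusted p = 0.0103), and the groups did not overlap. At KO ZT12 it had 2231, 2868, 3542 and 1782 CPM and at KO ZT18 2859, 3964, 2806 and 3640.0 CPM, where the call was just missed (log2 fold change 0.99, SE 0.278, adjusted p = 0.0535). Spi1 had 118, 161 and 214 CPM at KO ZT6 against 60.6, 103, 112 and 117 CPM in the KO ZT0 libraries (log2 fold change 0.70, SE 0.201, adjusted p = 0.0206) and 83.2, 112, 111 and 92.1 CPM at KO ZT12, within the range of KO ZT0. Irf8, a partner of PU.1 in macrophages, had 91.1, 161 and 192 CPM at KO ZT6 against 45.6, 94.0, 73.6 and 86.7 CPM in the KO ZT0 libraries (log2 fold change 0.98, SE 0.230, adjusted p = 0.00596). It was also called at KO ZT18, with 119, 162, 127 and 163 CPM (log2 fold change 0.92, SE 0.252, adjusted p = 0.0494). Sall1 had 271, 415 and 491 CPM at KO ZT6 against 164, 257, 209 and 283 CPM in the KO ZT0 libraries (log2 fold change 0.77, SE 0.206, adjusted p = 0.0143). In WT the lowest, median and highest of Csf1r were 1291, 2784 and 3984 CPM, which spans the KO ZT0 and KO ZT6 medians.

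The C1q chains were called over the day in KO (adjusted p = 0.0161 for C1qa, 0.0237 for C1qc and 0.0465 for C1qb) and none of the 3 passed at KO ZT6. C1qa had 346, 691 and 1041 CPM at KO ZT6 against 255, 465, 466 and 427 CPM in the KO ZT0 libraries (log2 fold change 0.74, SE 0.260, adjusted p = 0.0634). At KO ZT18 it had 747, 974, 751 and 945 CPM, above all KO ZT0 and all KO ZT12 libraries (log2 fold change 1.08, SE 0.288, adjusted p = 0.0442). The KO ZT12 values were 374, 528, 612 and 386 CPM. C1qb had 648, 926, 629 and 830.3 CPM at KO ZT18 against 234, 517, 419 and 435 CPM at KO ZT0, and C1qc 687, 987, 695 and 860.3 CPM at KO ZT18 against 248, 541, 457 and 427 CPM at KO ZT0. All 3 chains had their highest KO median at ZT18, and their KO ZT18 libraries were all above the KO ZT0 libraries, as for 9.69% of all genes. The KO ZT18 libraries were all low in rRNA and no KO ZT0 library was, so time and the low share cannot be told apart here. Of C1qb and C1qc, which had a promoter window, C1qc held the PU.1 motif and C1qb did not.

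Of the ITAM adaptors and receptors, Tyrobp and Trem2 were called higher at KO ZT6, where 6.55% of all genes were. Fcer1g (0.68, adjusted p = 0.0588) and Fcgr3 (0.70, adjusted p = 0.0523) were higher too but did not pass. Tyrobp had 104, 201 and 281 CPM at KO ZT6 against 62.5, 132, 117 and 126 CPM in the KO ZT0 libraries (log2 fold change 0.76, SE 0.247, adjusted p = 0.0423). Trem2 had 146, 289.7 and 375 CPM at KO ZT6 against 88.1, 174, 143 and 174 CPM in the KO ZT0 libraries (log2 fold change 0.86, SE 0.250, adjusted p = 0.0233). In both genes KO ZT6 replicate 1 was the low library that overlapped KO ZT0. Without the low-rRNA libraries or KO ZT18 the call of Tyrobp for time of day in KO ended as well.

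All 4 leukocyte membrane genes were called higher at KO ZT6, where 6.55% of all genes were. Laptm5 had 818, 1132 and 1694 CPM at KO ZT6 against 379, 733, 487 and 763 CPM in the KO ZT0 libraries (log2 fold change 1.03, SE 0.259, adjusted p = 0.00938), and Selplg 142, 196 and 383 CPM at KO ZT6 against 57.7, 128, 112 and 91.4 CPM in the KO ZT0 libraries (log2 fold change 1.20, SE 0.338, adjusted p = 0.0190). Both were without overlap, as was Cd53, with 181, 223 and 395 CPM at KO ZT6 against 75.5, 137, 124 and 152 CPM in the KO ZT0 libraries (log2 fold change 1.04, SE 0.249, adjusted p = 0.00676). Ptprc, the CD45 phosphatase gene, had 135, 163 and 196 CPM at KO ZT6 against 61.0, 99.1, 81.8 and 136 CPM in the KO ZT0 libraries (log2 fold change 0.81, SE 0.221, adjusted p = 0.0163), and the lowest KO ZT6 library was just below KO ZT0 replicate 4.

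Among the lysosomal genes 5 of 6 were called higher at KO ZT6, where 6.55% of all genes were. Lyz2 was higher too but did not pass (0.40, adjusted p = 0.447). Lgmn had 1314, 2113 and 3071 CPM at KO ZT6 against 720.3, 1379, 1224 and 1308 CPM in the KO ZT0 libraries (log2 fold change 0.85, SE 0.235, adjusted p = 0.0168). Unc93b1 had 338, 541 and 739.8 CPM at KO ZT6 against 167, 329, 310.1 and 301 CPM in the KO ZT0 libraries (log2 fold change 0.91, SE 0.234, adjusted p = 0.0109). It was the only 1 of these 6 genes whose groups did not overlap. Cd68, a lysosomal glycoprotein, had 141, 225 and 347 CPM at KO ZT6 against 71.7, 144, 121 and 162 CPM in the KO ZT0 libraries (0.88, adjusted p = 0.0117). Ctss, whose promoter window is printed here, had 411, 657 and 1112 CPM at KO ZT6 against 248, 475, 459 and 440.0 CPM in the KO ZT0 libraries (0.79, adjusted p = 0.0384). Mpeg1 had 411, 768 and 813 CPM at KO ZT6 against 254, 469, 339 and 597 CPM in the KO ZT0 libraries (0.73, adjusted p = 0.0313). In all, 8 members had every KO ZT6 library above every KO ZT0 library, as 3.39% of all genes did, and 23 had every KO ZT18 library above every KO ZT0 library, as 9.69% of all genes did.

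Cd14 had the lowest adjusted p of the list. Like Spi1 (log2 fold change 0.018) and C1qc (0.052), it was near its KO ZT0 level at KO ZT12 (0.007). It had 38.3, 45.7, 59.7 and 94.5 CPM at KO ZT0, a lowest, median and highest of 89.8, 131 and 207 CPM at KO ZT6, 48.6, 63.0, 80.9 and 46.8 CPM at KO ZT12 and 99.6, 111, 97.4 and 144 CPM at KO ZT18. KO ZT6 and KO ZT18 were above KO ZT0 and KO ZT12 except for KO ZT0 replicate 4, which lay inside the KO ZT6 range. The fold change at KO ZT6 was 1.23 on the log2 scale (SE 0.289, adjusted p = 0.00596), and at KO ZT18 it was 0.92 (adjusted p = 0.0960). In WT it had 34.1, 77.7, 75.2 and 78.4 CPM at ZT0, 92.2, 183, 108, 84.3 and 109 CPM at ZT6, a lowest, median and highest of 52.5, 86.7 and 177 CPM at ZT12 and 115, 76.6, 67.0 and 52.9 CPM at ZT18. Single WT libraries, at 183 CPM at ZT6 and 177 CPM at ZT12, lay inside the upper part of the KO ZT6 range. The other innate genes, Ly86 (0.65, adjusted p = 0.101) and Aif1 (0.58, adjusted p = 0.0980), did not pass at KO ZT6.

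The border macrophage genes Mrc1 and Pf4 passed in no comparison. Mrc1 had 329, 788, 548 and 823 CPM at KO ZT0, a lowest, median and highest of 461, 927 and 1365 CPM at KO ZT6, 865, 890.4, 1046 and 667 CPM at KO ZT12 and 629, 774, 675 and 842 CPM at KO ZT18, so all groups overlapped. Its log2 fold change was 0.57 at KO ZT6 (adjusted p = 0.145) and 0.23 at KO ZT18 (adjusted p = 0.708). Pf4 had 0.23 (adjusted p = 0.697) and -0.09 (adjusted p = 0.921), and its sign turned without KO ZT0 replicate 1 at KO ZT6 and under the OPC scaling at KO ZT18. The log2 difference of Mrc1 minus P2ry12, a microglial gene, split the KO ZT6 libraries: it was -0.69, -0.95 and -1.06 in replicates 1, 2 and 3, and -0.05, 0.10, 0.18 and 0.49 in replicates 4, 5, 6 and 7. In KO the same difference averaged 0.16 ± 0.17 at ZT0 (SD, n = 4), -0.28 ± 0.61 at ZT6 (n = 7), 0.07 ± 0.13 at ZT12 (n = 4) and -0.35 ± 0.18 at ZT18 (n = 4). In WT it averaged -0.08 ± 0.54 at ZT0 (n = 4), -0.23 ± 0.25 at ZT6 (n = 5), -0.07 ± 0.37 at ZT12 (n = 6) and -0.003 ± 0.169 at ZT18 (n = 4). The WT ZT12 libraries were split as well, at -0.59, -0.24 and -0.26 in replicates 1, 2 and 3. Replicates 4, 5 and 6 of that group, which were low in rRNA, had 0.01, 0.45 and 0.18. WT ZT0 had 0.26, -0.36, -0.69 and 0.48 in replicates 1, 2, 3 and 4. The part of the KO ZT6 split in the KO ZT6 results was not tested.

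Lists of related genes gave counts alongside. The shares of all genes called were 21.9% over the day in KO, 4.91% over the day in WT and 9.19% for the interaction. Called higher than at KO ZT0 were 6.55% at KO ZT6 and 1.12% at KO ZT18. For KO against WT the shares were 5% at ZT12 and 2.14% at ZT18. Of 24 further microglia genes, such as Itgam, 21 were called over the day in KO, 23 were called higher at KO ZT6 than at KO ZT0 (median log2 fold change 0.92), and 7 at KO ZT18 (median 0.78). In WT 3 of the 24 (C3ar1, Plek and Runx1) were called over the day, and the interaction called 2 (Plek and Csf2ra). For KO against WT, Csf2ra was called lower in KO at ZT12 and Plek higher in KO at ZT18. Of 20 genes of CSF1R and TREM2 signalling, 5 of which are members, 18 were called over the day and 19 were called higher at KO ZT6 (median 0.88), all but Il34. Inpp5d, Ptpn6 and Runx1 are also among the 24 genes above, so they are counted in both lists. In WT 4 of the 20, among them Csf1, Runx1 and Cebpa, were called over the day, and the interaction called 3 (Csf1, Cebpa and Tgfb1). For KO against WT, Cebpa was called lower in KO at ZT12 and higher in KO at ZT18. Csf1 encodes the growth factor that binds CSF1R, and Cebpa a transcription factor of myeloid cells. Of 12 genes of axon-tract microglia, a state seen in early white matter, 4 (Gpnmb, Clec7a, Ctsb and Ctsd) were called higher at KO ZT6. None of 10 border macrophage markers was called, with a median of 0.28 at KO ZT6 and -0.01 at KO ZT18, where 5 of 10 were positive.

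Markers of other cells gave calls in the same comparisons. For time of day in KO, 21.9% of all genes were called. Of the markers, 11 of 11 neuron, 9 of 10 astrocyte, 6 of 6 red blood cell and 6 of 10 endothelial were called. The counts were 5 of 6 for oligodendrocyte, 5 of 12 for OPC and 3 of 8 for mural markers, and 0 of 7 for monocytes, neutrophils and lymphocytes. For time of day in WT, 4.91% of all genes and 0 of the 34 members were called. The markers called were 8 of 10 astrocyte, 5 of 6 red blood cell and 3 of 11 neuron. At KO ZT6 against KO ZT0, 2316 of the 22798 genes were called in either direction, 1493 of them higher. Of the neuron markers 9 of 11 were called lower (median -0.85). Their summed level was 498 to 949 CPM at KO ZT6 and 870.2 to 1274 CPM at KO ZT0. The OPC markers had 0 of 12 called (median -0.12) at KO ZT6. At KO ZT12, 3 of 12 were called lower (Olig1, C1ql1 and Cacng4), where 3.27% of all genes were called in either direction. At KO ZT18, 1 of 12 was called lower (Lhfpl3), where 363 of the 22798 genes were called in either direction, 256 of them higher. The summed OPC levels were 13690.0 to 19552 CPM at KO ZT6 and 16015 to 18057 CPM at KO ZT0. Of 7 tested genes of monocytes, neutrophils and lymphocytes 1, Ccr2, was called higher, with a sum of 5.94 to 21.3 CPM at KO ZT6 and 3.33 to 12.4 CPM at KO ZT0. At KO ZT18 against KO ZT0, 1.12% of all genes were called higher. So were 3 of 6 tested oligodendrocyte markers (Mag, Mbp and Cldn11, genes of myelin), with sums of 311 to 490.2 CPM at KO ZT18 and 106 to 214 CPM at KO ZT0. The same 3 were called higher in KO than in WT at ZT18, where the WT sums were 140.4 to 167 CPM. In that comparison 2.14% of all genes were called, and genotype and the low rRNA share cannot be told apart. Astrocyte, endothelial and red blood cell markers were all positive at KO ZT18 against KO ZT0, with medians of 0.59, 0.87 and 1.02 and with 0 of 10, 0 of 10 and 1 of 6 called. The part of these other cells in the course of the 34 genes was not tested.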

How the data were processed

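Panned mouse OPC libraries (polyA-selected, NEBNext Ultra II, paired-end) were counted per gene by the authors, and the deposited table holds raw counts and, as another column, gene lengths in bases. Per the submitters' processing notes the tools were fastp, HISAT2 2.0.5 and featureCounts 1.5.0-p3 with GRCm38 (mm10); annotation release and strand setting: not given in the sources used here. Per the labels' protocols each replicate pooled 2 mice of both sexes under a 12 h light and 12 h dark cycle. Groups were taken from the labels (19 KO and 19 WT libraries). Of the 76 pairs of libraries within groups none agreed within counting noise (smallest chi-square per degree of freedom 11.63). Each p-value weighs a difference between groups against the spread between libraries, each a pool of 2 mice.

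The main test was edgeR 4.0.16 (R 4.3.3), with filterByExpr, TMM scaling, 8 group means over all 38 libraries and glmQLFTest, with Benjamini-Hochberg adjustment over 22798 genes and a threshold of 0.05. The genes tested hold 99.9487% of the counts. CPM use TMM library sizes, and log2 CPM a prior count of 2. The 8 planned tests were KO against WT at each time and over all times, time of day in each genotype, and the interaction; the 3 comparisons of later KO times with KO ZT0 were added after the KO time test was seen. Members and lists were chosen with earlier results of these data known. By the rule for named genes, values were given for each member called in any comparison and for the member of each role group highest per kb; outside the list, for the 10 genes nearest to the members' mean profile and for marker genes with a call or the highest level of their list. A few genes outside the 34 are not reported here by name. Members named in uncalled comparisons were chosen after their values were seen. Alternatives were RLE scaling, library size alone, scaling on OPC markers, no filter, DESeq2 1.42.0, limma-voom (limma 3.58.1), a replicate block, fits without low-rRNA, single-sex or any one library, and fits of fewer groups. The scripts were tested on simulated data.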

Additional observations from a re-analysis of the deposited data

Results flagged for a closer look

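Among 15 measures in 8 groups, of which all 120 were tested for a library far from the others, 2 were found, both of Cd14. Chance gives about 1 in 20, a larger share than 2 of 120, so the 2 are a description. Cd14 had 34.1 CPM in WT ZT0 replicate 1, and the other 3 libraries of that group lay between 75.2 and 78.4 CPM. It had 183 CPM in WT ZT6 replicate 2, and the other 4 libraries of that group lay between 84.3 and 109 CPM. These libraries were not apart from their groups in the summed share of the 34 genes, at 1.05% for WT ZT0 replicate 1 and 1.79% for WT ZT6 replicate 2.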

How the results depend on the processing

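The counts of members called rested on single libraries and settings, and the causes were not tested. For time of day in KO, 23 became 7 without the low-rRNA libraries, 14 without KO ZT18, and 6 to 27 when a library was left out. The shares of all genes called were 21.9% in the main fit, then 8.93%, 12.1%, and 15.8% and 22.6%, in that order. They were 32.8% with DESeq2 and 11% with no filter. For the other comparisons the share of all genes under each setting is not given here. Their counts therefore do not compare the members with all genes. The later KO times against KO ZT0 moved most. KO ZT6 had 12 calls with OPC scaling, 15 without the low-rRNA libraries and 0 to 29 with a library left out, and DESeq2 gave 30. KO ZT12 had 2 with OPC scaling, 1 with DESeq2 and 0 to 2 with a library left out. KO ZT18 had 8 with library size alone, 0 with OPC scaling, 16 with no filter, 16 with DESeq2, 7 with limma-voom, 0 without the single-sex libraries, 13 with KO libraries alone and 0 to 14 with a library left out. For KO against WT, ZT0 had 1 call with DESeq2 and 0 to 2 with a library left out, and ZT12 had 1 with OPC scaling (Ptprc) and 1 without the single-sex libraries (Cd14). The interaction had 1 call with no filter (Tmem119), 2 without the single-sex libraries (Cd14 and Spi1) and 0 to 1 with a library left out. ZT6, ZT18, all times and WT time of day kept 0 calls in every alternative run.

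Medians kept their sign except those near 0. At ZT12 the median was 0.01732 with RLE scaling, 0.03582 with library size alone, 0.3363 with OPC scaling, 0.01728 with DESeq2, 0.0964 without the low-rRNA libraries, 0.00788 with the groups of the comparison alone, and -0.1401 to 0.101 with a library left out. Over all times it was -0.004118 with RLE scaling, -0.004096 with library size alone, -0.004116 with DESeq2, -0.01699 without the low-rRNA libraries, and -0.04642 to 0.06665 with a library left out. The log2 ratio of summed shares at ZT12 was 0.009014 relative to the OPC markers. Pf4 turned at KO ZT18 to 0.04039 with OPC scaling and 0.01189 with limma-voom. With a library left out, C1qa at ZT0 lay between -0.3542 and 0.06191, Mrc1 at ZT18 lay between -0.3637 and 0.002416, Pf4 at KO ZT6 lay between -0.01037 and 0.4429 and Pf4 at KO ZT18 lay between -0.3223 and 0.1308.

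The replicate numbers do not pair the libraries: 2 of 17 same-numbered pairs correlated above 0.1, up to 0.249, and not every library correlated best with its own number. With the replicate block, KO time of day had 22 calls, 21 of them among the 23, where 25% of all genes were called. KO ZT18 had 15 calls, and Pf4 at KO ZT6 turned to -0.09371. The fit without low-rRNA libraries has no KO ZT18 group, so it gave no value for comparisons that need it.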
